A study of Mus musculus with 6 samples.

Results

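RING and TRIM proteins form large families of ubiquitin ligases, and their genes were compared between wild-type and *Prdm14*-null mouse ES cells. The genes were chosen by name: every gene whose symbol in the array annotation is Rnf or Trim followed by a digit, together with *Rlim*, which is also known as *Rnf12*. *Rnf2* and *Trim28*, which work in Polycomb and heterochromatin complexes, were left out. Of 74 such genes with a named probe above background on at least 1 array, 71 were above background on at least 3 of 6 arrays and were analysed, 47 Rnf genes including *Rlim* and 24 Trim genes, out of 8343 genes in all. The other 3, *Rnf141*, *Rnf144a* and *Trim62*, were above background on 2, 1 and 1 arrays and were not tested.

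PRDM14 is a zinc-finger regulator of pluripotency and of the germ line. Both genotypes were ES cells on a C57BL/6 background, grown in 2i, a medium with inhibitors of MEK and of glycogen synthase kinase-3. One group of 3 samples was the wild-type control and the other group of 3 lacked *Prdm14*. The *Prdm14*-null ES cells were derived in 2i, and knockout embryos in the study came from crosses of heterozygous C57BL/6 mice. The samples of a genotype were taken from successive passages. Whether separate lines were used is not stated in these sources, so p-values measure only the spread between the samples at hand. RNA of each sample was read on an Illumina Mouse WG-6 BeadChip.

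A ubiquitin ligase brings a ubiquitin-loaded conjugating enzyme (E2) to a substrate and so decides which protein is tagged for the proteasome or for another fate. In RING ligases the RING domain holds the E2, and the ubiquitin passes straight from the E2 to the substrate. RBR ligases (RING-between-RING) first take the ubiquitin onto a cysteine of their own. TRIM proteins carry a RING, B-boxes and a coiled coil in a row, and are classed by their C terminus, such as the SPRY domain of many antiviral TRIMs, NHL repeats, or the COS box that binds microtubules. In ES cells the best-known member is the X-linked ligase RLIM, which marks the pluripotency factor REX1 for degradation and thereby promotes *Xist* expression and X inactivation in female cells.

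DNA methyltransferases act at the dinucleotide CG. Promoters are shown here of the 4 genes that differed between the genotypes and had a single promoter window. Each is the stretch of 250 bases before the start of a RefSeq transcript (GRCm38.p6), written 5′ to 3′ on the strand of the gene, with every CG in capitals. *Rlim* lies on the minus strand and its window is chrX:103981286-103981535. The window of *Rnf216*, also on the minus strand, is chr5:143113021-143113270. *Rnf208* and *Trim43a* lie on the plus strand, with windows at chr2:25242679-25242928 and chr9:88580641-88580890. The full extent of *Rlim* and *Rnf216* in the annotation begins further upstream than these transcripts, so their windows reach 11 and 21 bases into it.
Rlim: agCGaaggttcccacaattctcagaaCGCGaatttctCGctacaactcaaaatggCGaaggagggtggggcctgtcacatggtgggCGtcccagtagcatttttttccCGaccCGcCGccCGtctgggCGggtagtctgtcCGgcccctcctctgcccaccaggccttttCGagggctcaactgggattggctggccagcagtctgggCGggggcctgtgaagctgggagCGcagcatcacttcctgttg
Rnf216: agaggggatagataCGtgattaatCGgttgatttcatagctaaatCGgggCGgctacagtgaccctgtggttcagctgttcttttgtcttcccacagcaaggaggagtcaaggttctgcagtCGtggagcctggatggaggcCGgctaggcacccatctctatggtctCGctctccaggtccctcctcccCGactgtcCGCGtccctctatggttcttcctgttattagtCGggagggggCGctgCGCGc
Rnf208: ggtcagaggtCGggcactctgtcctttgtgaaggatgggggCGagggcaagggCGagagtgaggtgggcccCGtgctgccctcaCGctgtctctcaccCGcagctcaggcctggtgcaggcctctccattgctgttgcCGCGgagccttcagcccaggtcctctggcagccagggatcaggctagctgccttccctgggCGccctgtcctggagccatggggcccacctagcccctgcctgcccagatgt
Trim43a: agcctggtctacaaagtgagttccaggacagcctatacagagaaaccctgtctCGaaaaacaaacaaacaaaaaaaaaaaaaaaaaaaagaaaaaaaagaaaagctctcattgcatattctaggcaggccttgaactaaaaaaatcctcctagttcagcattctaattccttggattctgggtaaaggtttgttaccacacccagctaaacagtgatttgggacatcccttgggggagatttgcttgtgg

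The *Rlim* window held 15 CG dinucleotides, where 72.7% of all 32851 mouse windows in the table held fewer, and the *Rnf216* window held 14. The window of *Rnf208* held 9, and that of *Trim43a* held 1, where 7.87% of the mouse windows held fewer. Of the 71 genes, 52 matched the table with 72 windows, whose median CG count was 15 against 6 for all windows. *Rnf214* and *Trim2*, which also differed between the genotypes, had several windows and are not shown. Those of *Rnf214* held 22 and 35 CG and those of *Trim2* between 0 and 16. *Rnf17*, *Rnf113a2*, *Trim43b* and *Trim36* were among the 19 genes that did not match. The sequence GGTCTCTAA, described for human PRDM14, was searched on both strands and was in 0 of the 72 windows and in 0.24% of all. The E-box CACGTG, which reads the same on both strands, was in 5 windows, those of *Rnf145*, *Rnf166*, *Rnf44*, *Trim25* and *Trim39*, or 6.94% against 6.02% of all. These counts are of letters in a window, not of bound sites.

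Above background means, throughout, a detection p-value under 0.01, which the scanner software computes from negative control beads. Between 13456 and 14901 of 45281 probes per array were above it, and the median raw signal was between 56.8 and 80.6. The log2 signals correlated at 0.99 to 0.994 within a genotype and at 0.958 to 0.962 between genotypes. *Prdm14* itself was at 8.49, 8.51 and 8.42 in wild-type cells and at 5.03, 5.13 and 4.86 in *Prdm14*-null cells, where no array was above background, at least 6.62-fold lower (adjusted p = 2.46e-07). All 14 ES cell markers were measured, and 4 were higher and 1 lower in *Prdm14*-null cells, beside 6.72% and 8.41% of all genes. *Pou5f1*, *Sox2*, *Utf1* and *Dnmt3l* were higher and *Tfcp2l1* was lower. The 4 include *Dnmt3l* (log2 fold change 1.61), so the count is not one of cell identity alone. The paper reports *Dnmt3l*, a co-factor of *Dnmt3b*, as derepressed by the loss of *Prdm14*. The paper describes *Oct4* (*Pou5f1*) and *Sox2* as not affected, whereas their log2 fold changes here were 0.60 and 0.54. Of 12 fibroblast markers only *Thy1* was measured, with a normalized signal on the linear scale of 32 to 34 in wild-type and 86 to 158 in *Prdm14*-null cells. It was above background on 0 wild-type and all 3 *Prdm14*-null arrays, at least 2.515-fold higher. Because it entered the test through the *Prdm14*-null arrays alone, this is given as a description. The 2 measured markers of extra-embryonic endoderm summed to 117 to 163 and 141 to 352, and the 8 of trophectoderm to 2918 to 4372 and 2405 to 2883. The trophectoderm sum mostly follows *Tfap2c*, a germ cell gene in the paper, with mean log2 signals of 11.25 and 10.51. Of the 8, *Gata3* was higher (log2 fold change 1.49), *Krt8* lower (-0.89) and *Krt7* at least 2.325-fold lower. Whether other cell types had a part in the values that follow was not tested.

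Of the 71 genes, 10 differed between the genotypes at an adjusted p under 0.01 (limma, Benjamini-Hochberg over all probes), or 14.1%, against 15.1% of all genes. *Trim36*, *Rlim*, *Rnf113a2* and *Trim2* were higher in *Prdm14*-null cells. *Trim43a*, *Trim43b*, *Rnf17*, *Rnf208*, *Rnf216* and *Rnf214* were lower. The share called higher was 5.63% against 6.72% of all genes, and the share called lower 8.45% against 8.41%. All 3 shares were close to those of the genes on the array as a whole. *Trim43a*, *Trim43b* and *Rnf216* passed the filter on dim probes through the wild-type arrays, where they were high. They were not among the 61 genes above background on all 6 arrays, of which 4 were called higher and 3 lower. The share of all genes called under that stricter filter was not counted, so these counts have no background beside them. At an adjusted p under 0.05 the count was 18, 8 higher and 10 lower, or 25.4% against 27.4% of all genes. In 33 genes the arrays of the genotypes did not overlap, 19 with *Prdm14*-null cells above and 14 with them below, or 46.5% against 45.1% of all genes.

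Most changes were small. The median log2 fold change (*Prdm14*-null over wild-type) was 0.06 for the 71 genes and 0.02 for all genes, with 43 values above 0 and 28 below. It was 0.05 for the Rnf genes with *Rlim* and 0.10 for the Trim genes. The change was under 0.25 in 39 genes and under 0.5 in 60, and it reached 1 in 5 genes, *Trim43a*, *Trim43b*, *Trim36*, *Rlim* and *Rnf17*. In bulk RNA a lower signal can come from fewer cells with a transcript or from less of it per cell, and these cannot be told apart.

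**Figure D1:**
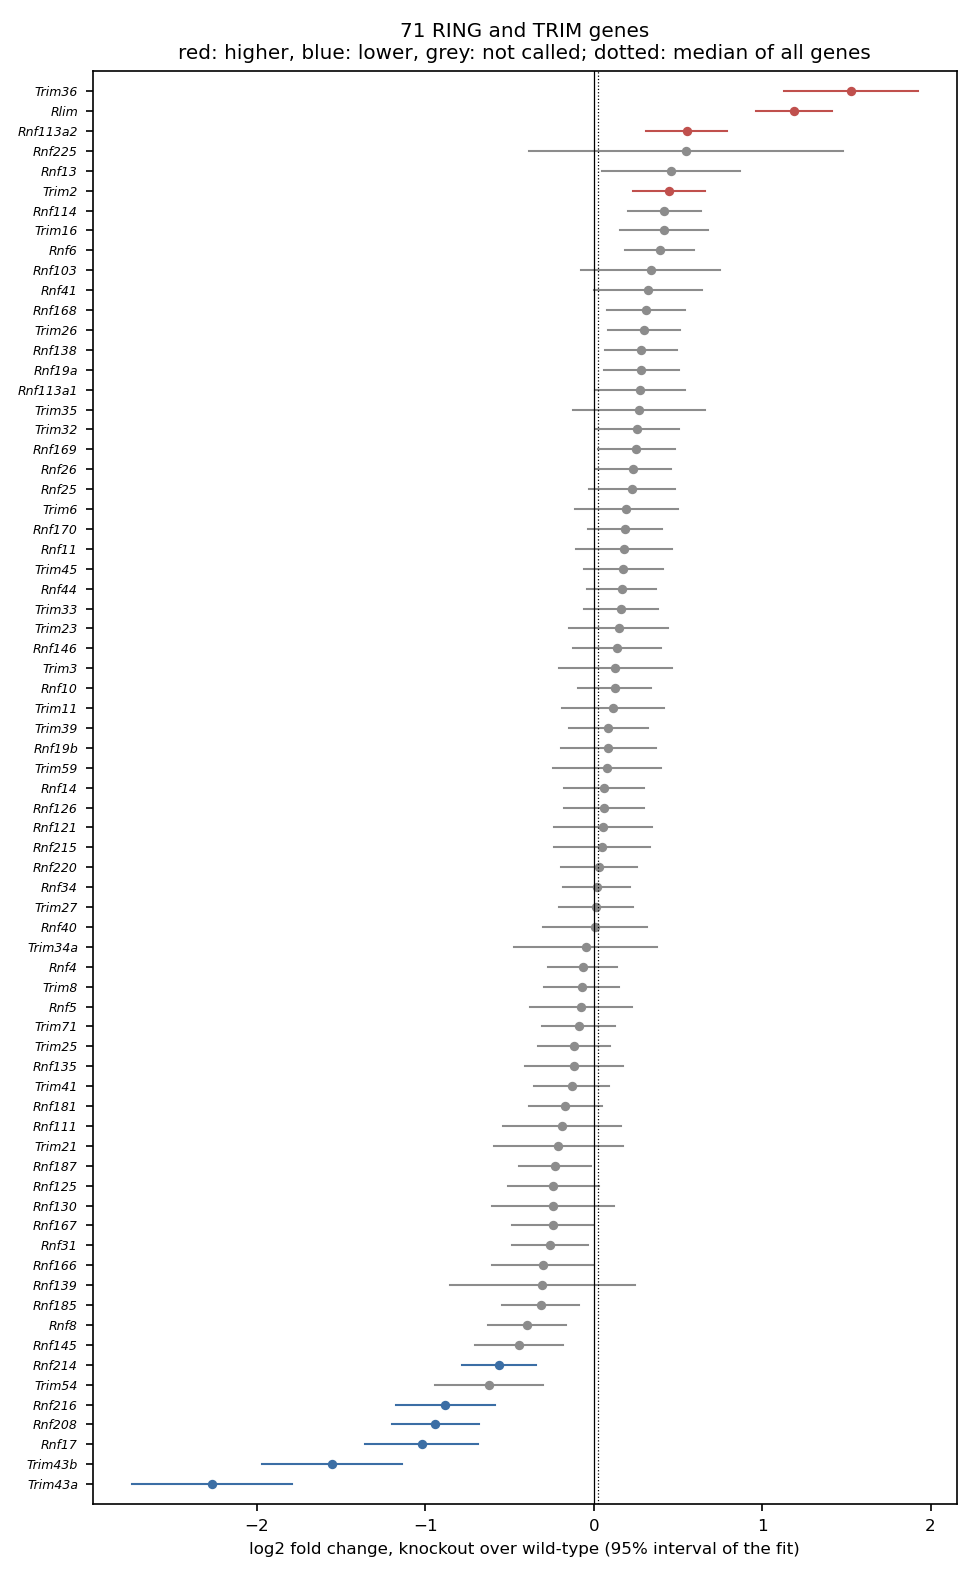
Log2 fold change of each of the 71 genes, *Prdm14*-null over wild-type, with the 95% interval of the fit. Points are red where the gene was called higher (4 genes), blue where it was called lower (6 genes) and grey otherwise, the dotted line is the median of all genes (0.02), and the values of *Trim43a* and *Trim43b* rest on *Prdm14*-null signals below background.

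*Rlim* rose 2.28-fold. The normalized log2 signal of its brighter probe was 11.31, 11.29 and 11.37 in the wild-type samples and 12.43, 12.46 and 12.65 in the *Prdm14*-null samples. The 3 samples of each genotype lay close together and the genotypes were far apart, with a log2 fold change of 1.19 (SE 0.10, n = 3 per genotype, adjusted p = 5.74e-05 in limma). A second probe was above background on no wild-type array and on all 3 *Prdm14*-null arrays, at least 1.70-fold higher. This probe entered the test through the *Prdm14*-null arrays alone, so its value is given as a description. The gene lies on chromosome X at 103957163 to 103981296 of GRCm38.p6. *Rlim* kept its call under all 18 alternative ways of processing, with log2 fold changes from 1.12 to 1.23. Among the 18, the looser threshold could not lose a call, and the brightest of all probes was the same probe as in the main fit.

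*Eif2s3y*, a Y-linked gene for a subunit of a translation initiation factor, differed between the genotypes as well. It was at 4.82, 5.29 and 5.0 in wild-type cells, below background on all 3 arrays, and at 8.60, 8.64 and 8.42 in *Prdm14*-null cells, at least 7.46-fold higher (adjusted p = 9.55e-07). *Uty*, the other Y-linked gene measured, had values of 5.80, 6.00 and 5.89 against 5.92, 6.30 and 6.41 (log2 fold change 0.31, adjusted p = 0.132), and unlike *Eif2s3y* its probe was above background on all 3 wild-type arrays. The genotypes were therefore read in cells that differed in a Y-linked transcript, and genotype and the sex chromosomes of the cells cannot be told apart for *Rlim* or any other X-linked gene. *Xist* and *Tsix* were not analysed here.

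Of 270 X-linked genes tested, 36 were higher and 28 lower, 23.7% in all, and their median log2 fold change was 0.12. *Rlim* had the ninth largest rise among them, at rank 9. The other X-linked member, *Rnf113a1*, was at 7.82, 7.49 and 7.68 in wild-type and 7.85, 7.90 and 8.07 in *Prdm14*-null cells, a log2 fold change of 0.28 (SE 0.12) that did not pass (adjusted p = 0.12). *Chic1*, an X-linked gene next to the X inactivation centre, had a log2 fold change of 0.02 (adjusted p = 0.941).

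None of the measured partners of RLIM passed the test. *Zfp42*, which encodes its substrate REX1, was at 9.96, 9.93 and 10.23 in wild-type and 10.34, 10.03 and 10.16 in *Prdm14*-null cells, and the genotypes overlapped (log2 fold change 0.13, adjusted p = 0.472). *Ldb1*, the LIM cofactor that RLIM ubiquitinates, had values of 12.14, 12.38 and 12.27 against 12.09, 12.05 and 12.14 (log2 fold change -0.17, adjusted p = 0.245). *Terf1*, another described substrate, and *Ctcf*, which binds the X inactivation centre, had log2 fold changes of -0.06 and 0.07 (adjusted p = 0.748 and 0.754). These are 5 measured genes of a list of 15 with *Chic1*, with a median of 0.02. Of the 5, 0 were called in limma, beside 15.1% of all genes, and 0 on the authors' processed values. An unadjusted p under 0.05 was found for 0 of them, beside 3326 of all 8343 genes. They are levels of RNA, whereas RLIM acts on proteins.

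**Figure D2:**
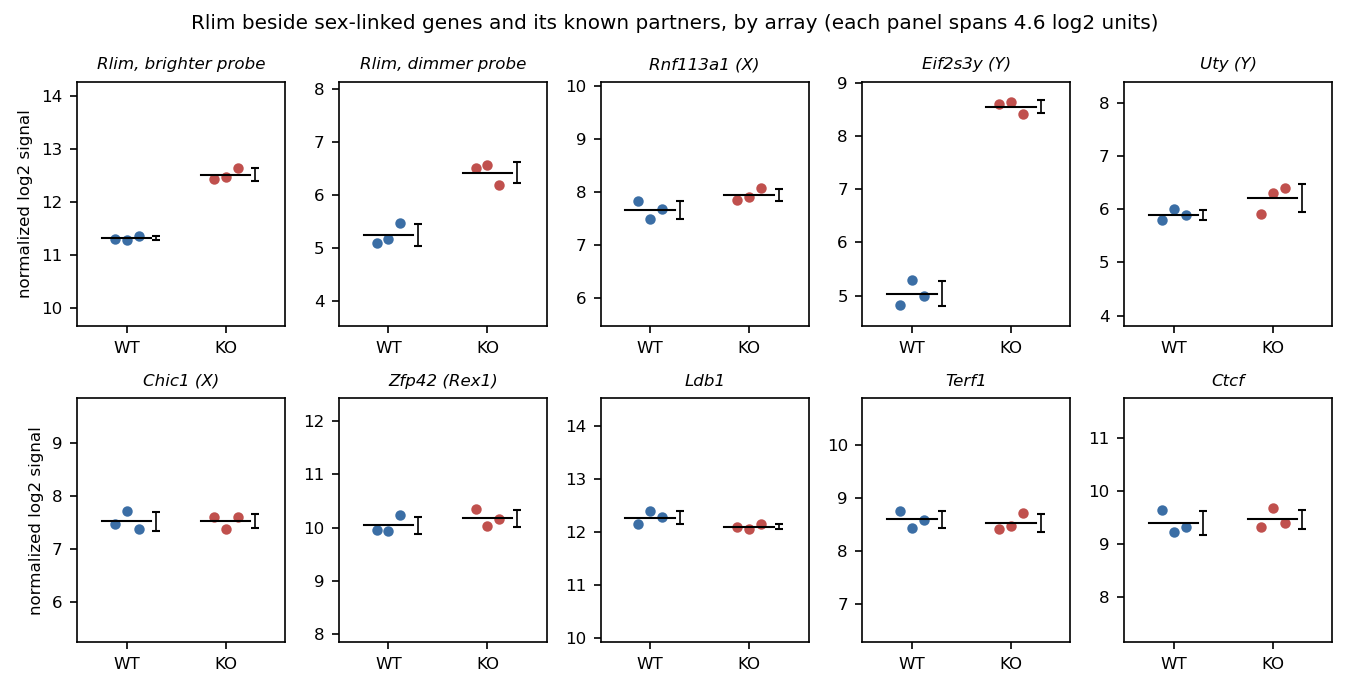
Normalized log2 signal by array of both *Rlim* probes, the X-linked genes *Rnf113a1* and *Chic1*, the Y-linked genes *Eif2s3y* and *Uty*, and RLIM partners. Points are samples (blue wild-type, red *Prdm14*-null, n = 3 each), horizontal lines means and vertical bars ± SD, and each panel spans the same number of log2 units. Among the panels only the *Rlim* probes and *Eif2s3y* passed the test. The dimmer *Rlim* probe and *Eif2s3y* were above background on *Prdm14*-null arrays alone.

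The nuclear ligases, which act on chromatin, DNA repair and transcription, had 13 measured genes including *Rlim*. Of these 2 were called higher and 0 lower, beside 6.72% and 8.41% of all genes, and 10 had a log2 fold change above 0, beside 4435 of all 8343 genes, with a median of 0.25 and a range from -0.40 to 1.19. Besides *Rlim*, the called gene was *Rnf113a2*, an autosomal relative of *Rnf113a1*, whose protein belongs to the spliceosome. It was at 9.23, 9.0 and 9.30 in wild-type and at 9.73, 9.74 and 9.71 in *Prdm14*-null cells, a log2 fold change of 0.55 (SE 0.11, adjusted p = 0.00538). All *Prdm14*-null samples were above all wild-type samples. The call was lost whichever sample was left out, with the adjusted p reaching 0.0249, and both *Rnf113a* genes are close copies whose probes may share signal.

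*Rnf6*, the closest relative of *Rlim*, missed the threshold by little. Its values of 9.03, 9.0 and 9.02 in wild-type cells and 9.34, 9.43 and 9.45 in *Prdm14*-null cells did not overlap, with a log2 fold change of 0.39 (SE 0.09, adjusted p = 0.0126), and its second probe gave 0.37. It was called on the authors' processed values, without background correction, with an offset of 50 and under 3 further alternatives.

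*Rnf8*, the ligase that first marks chromatin at a break, was at 10.00, 9.81 and 9.78 against 9.56, 9.43 and 9.42 (log2 fold change -0.40, adjusted p = 0.0222), but its second probe gave 0.05. It was called on the authors' processed values, without background correction and with a variance model that allows for a trend and outliers. *Rnf168*, which extends that mark on histone H2A, was at 8.32, 8.39 and 8.40 against 8.60, 8.83 and 8.61 (0.31, adjusted p = 0.0562). *Rnf169* and *Rnf138* had log2 fold changes of 0.25 and 0.28 (adjusted p = 0.0977 and 0.0581), and the other probes of *Rnf138* gave 0.09 and 0.07 with overlapping genotypes. None of these genes passed the test.

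*Rnf4*, a ligase that recognizes SUMO chains, was at 10.69, 10.58 and 10.61 against 10.60, 10.53 and 10.55 (log2 fold change -0.07, adjusted p = 0.635). *Rnf40*, which with RNF20 forms the ligase for histone H2B, varied more among wild-type samples (9.03, 8.50 and 8.77) than between genotypes (8.80, 8.80 and 8.74 in *Prdm14*-null cells), with a log2 fold change of 0.01. *Rnf111*, or Arkadia, which raises the response to Nodal and TGF-β, had values of 6.67, 6.39 and 6.32 against 6.54, 6.00 and 6.27 (-0.19, adjusted p = 0.411). The genotypes overlapped in all 3 genes. For *Rnf10* and *Rnf44* the values were 0.12 and 0.17, and neither passed. *Rnf20* was not analysed here.

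*Rnf216* was the called member of the RBR ligases, of which 5 were measured with a median of 0.06. RNF216, also named TRIAD3, was first described as a regulator of Toll-like receptors. The gene was at 6.35, 6.45 and 6.57 in wild-type and 5.70, 5.32 and 5.71 in *Prdm14*-null cells, where 1 of 3 arrays was above background (log2 fold change -0.88, SE 0.13, adjusted p = 0.00128). No *Prdm14*-null sample reached the lowest wild-type sample. On the authors' processed values the log2 fold change was -0.29. *Rnf31*, the catalytic subunit of the linear ubiquitin ligase, was at 7.42, 7.35 and 7.32 against 6.99, 7.12 and 7.21 (-0.26, adjusted p = 0.0891). Neither *Rnf14* (0.06) nor *Rnf19a* (0.28) passed.

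Neither group of membrane ligases held a gene called in limma, beside 15.1% of all genes, and both groups are too small to tell from that share. The PA-TM-RING ligases, which sit in membranes of the secretory and endosomal pathway, had 4 measured genes with a median of -0.10. Among them *Rnf167* and *Rnf130* were both at -0.24. The further probes of *Rnf167* gave -0.36, -0.39, -0.18 and -0.0021, and none was called (lowest adjusted p = 0.0140 in limma). *Rnf13* had the largest value of the group, 0.46, at 6.80, 7.15 and 7.22 against 7.90, 7.37 and 7.27 (adjusted p = 0.0977). The other ligases of the endoplasmic reticulum, the Golgi and endosomes had 8 with a median of -0.01. Nearest to the threshold was *Rnf145*, a sterol-responsive ligase of the endoplasmic reticulum, at 9.67, 9.41 and 9.48 against 9.19, 9.11 and 8.93 (adjusted p = 0.0215). *Rnf185*, which serves protein quality control there, was at 9.86, 9.65 and 9.80 against 9.47, 9.38 and 9.52 (-0.32, adjusted p = 0.0470). At an unadjusted p under 0.05 the counts were 2 of 4 and 3 of 8, beside 3326 of all 8343 genes. On the authors' processed values *Rnf145* was called. *Rnf5*, a close relative of *Rnf185*, had a log2 fold change of -0.08 and *Rnf26* one of 0.24. *Rnf43* was not analysed here.

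In the rest of the Rnf genes, 17 in all, 0 were called higher and 3 lower, beside 6.72% and 8.41% of all genes, and the median was 0.02. *Rnf17* encodes a Tudor-domain protein of male germ cells that is required for spermatid development. It was at 8.0, 8.19 and 8.60 in wild-type and at 7.25, 7.21 and 7.26 in *Prdm14*-null cells, 2.03-fold lower (log2 fold change -1.02, SE 0.15, adjusted p = 0.0012). The wild-type samples spread over a range that the *Prdm14*-null samples did not, and all *Prdm14*-null samples were below them. On the authors' processed values the log2 fold change was -0.65, and the adjusted p was 0.0102 when dim probes were kept in.

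*Rnf208* was at 8.90, 9.09 and 9.13 in wild-type and 7.93, 8.20 and 8.17 in *Prdm14*-null cells, 1.92-fold lower (log2 fold change -0.94, SE 0.11, adjusted p = 0.000441). The genotypes were well separated, and the call was kept under all 18 alternatives, among them a looser threshold that could not lose it. *Rnf214* differed by less, at 7.28, 7.42 and 7.46 against 6.86, 6.76 and 6.83 (log2 fold change -0.56, SE 0.10, adjusted p = 0.00306). Its arrays did not overlap, but the call was lost when *Prdm14*-null sample 2 or 3, or wild-type sample 2 or 3, was left out, with an adjusted p of up to 0.0181. On the authors' processed values its log2 fold change was -0.29.

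*Rnf114* missed the threshold, at 9.20, 9.30 and 9.31 against 9.71, 9.60 and 9.76 (log2 fold change 0.42, adjusted p = 0.0127). It was called on the authors' processed values, without background correction, with an offset of 50 and with the variance model of trend and outliers, and its second probe gave 0.30 with overlapping genotypes. *Rnf225* varied most among the arrays of a genotype, at 6.23, 6.80 and 5.20 in wild-type and 6.29, 6.22 and 7.36 in *Prdm14*-null cells. The genotypes overlapped, and its log2 fold change of 0.55 had an SE of 0.41 (adjusted p = 0.372).

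Among the Trim genes, *Trim43a* and *Trim43b* fell below background. Both are described as genes of the mouse preimplantation embryo. *Trim43a* was at 6.65, 6.42 and 7.34 in wild-type and at 4.51, 4.64 and 4.46 in *Prdm14*-null cells, where 0 of 3 arrays were above background. Measured against the lowest signal that counts as above background, it was at least 2.08-fold lower. *Trim43b* was at 5.82, 6.09 and 6.63 against 4.67, 4.55 and 4.65, again with 0 of 3 *Prdm14*-null arrays above background, at least 1.35-fold lower. Both genes entered the test through the wild-type arrays alone, so their calls are given as a description. In both genes the wild-type samples spread widely and all were above background. The genes are close copies on chromosome 9, at 88580891 to 88588824 and 89084624 to 89092835, so their probes may share signal and the pair may not be 2 separate measurements.

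*Trim36* showed the largest rise of the 71 genes, 2.88-fold. It has a COS box and associates with microtubules. Its values were 6.31, 5.94 and 6.16 in wild-type and 7.28, 7.94 and 7.77 in *Prdm14*-null cells (log2 fold change 1.53, SE 0.18, adjusted p = 0.000322). A second probe was above background on 0 wild-type and all 3 *Prdm14*-null arrays, at least 1.89-fold higher. It entered the test through the *Prdm14*-null arrays alone, so its value is given as a description. The call of *Trim36* was kept under all 18 alternatives, among them a looser threshold that could not lose it. On the authors' processed values its log2 fold change was 0.74. *Trim54*, the other COS-box gene with a Trim symbol measured here and a muscle protein also named MURF3, was at 6.17, 6.46 and 6.38 against 5.50, 5.66 and 5.98, with 1 *Prdm14*-null array above background (-0.62, adjusted p = 0.0122). It was called with median scaling, with array weights and without *Prdm14*-null sample 3.

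*Trim2* was called among the 4 genes with NHL repeats, whose median was 0.19. TRIM2 ubiquitinates neurofilament light chain in neurons. It was at 8.66, 8.57 and 8.70 in wild-type and 9.15, 9.05 and 9.07 in *Prdm14*-null cells, 1.36-fold higher (log2 fold change 0.45, SE 0.09, adjusted p = 0.00801). Samples of each genotype lay close together, yet the call was lost whichever sample was left out, with an adjusted p of up to 0.0327. *Trim71*, or LIN41, a let-7 target that holds back differentiation in ES cells, was at 10.42, 10.37 and 10.54 against 10.30, 10.35 and 10.41, and the genotypes overlapped (-0.09, adjusted p = 0.531). Neither *Trim32* (0.26) nor *Trim3* (0.13) passed, and their second probes had the opposite sign, at -0.23 and -0.03.

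The SPRY-domain group, with many TRIMs of antiviral defence, had 11 measured genes with a median of 0.09 and a range from -0.21 to 0.42. Of these 0 were called in either direction, beside 15.1% of all genes, and a group of this size is too small to tell from that share. An unadjusted p under 0.05 was found for 2 of them, *Trim26* and *Trim16*, beside 3326 of all 8343 genes. On the authors' processed values *Trim26* was called. *Trim25*, the ligase of the RNA sensor RIG-I, had a log2 fold change of -0.12 (adjusted p = 0.408). *Trim26* was at 10.28, 10.14 and 10.26 against 10.57, 10.53 and 10.47 (0.30, adjusted p = 0.0466). *Trim16* was at 5.44, 5.61 and 5.63 against 5.91, 6.16 and 5.86, but it was above background on only 1 wild-type and 2 *Prdm14*-null arrays (adjusted p = 0.0281). *Trim33*, a transcriptional cofactor with a PHD finger and a bromodomain that binds SMADs, was at 9.43, 9.30 and 9.33 against 9.42, 9.58 and 9.55 (0.16, adjusted p = 0.254), and its 3 other probes gave 0.03, -0.03 and -0.19. *Trim8* and *Trim23*, of the 4 genes with other C termini (median 0.11), had log2 fold changes of -0.07 and 0.15. *Trim24* was not analysed here.

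**Figure D3:**
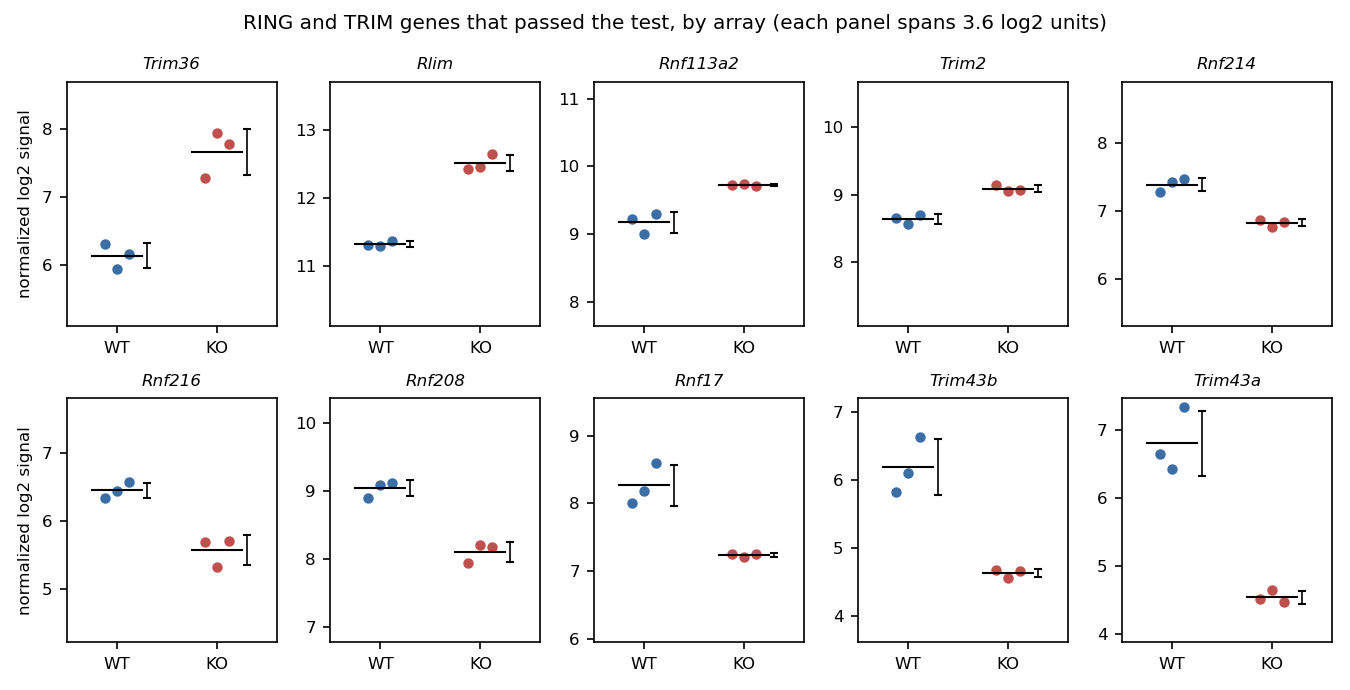
Normalized log2 signal by array of the 10 called genes. Points are samples (blue wild-type, red *Prdm14*-null, n = 3 each), horizontal lines means and vertical bars ± SD, and all panels span the same number of log2 units; in every panel the samples of the genotypes are apart.

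Several probes read 30 of the 71 genes, up to 5 for 1 gene. In 23 of the 30 all probes of the gene had the same sign. Of the called genes, 8 rest on a single probe and 2, *Rlim* and *Trim36*, had a second probe that was also called. The second probe of both genes entered the test through the *Prdm14*-null arrays alone, so it is no separate check of the direction. No gene outside the called set had another probe that was called (0 genes). A change seen with 1 probe alone was not checked by a second part of the transcript.

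**Figure D4:**
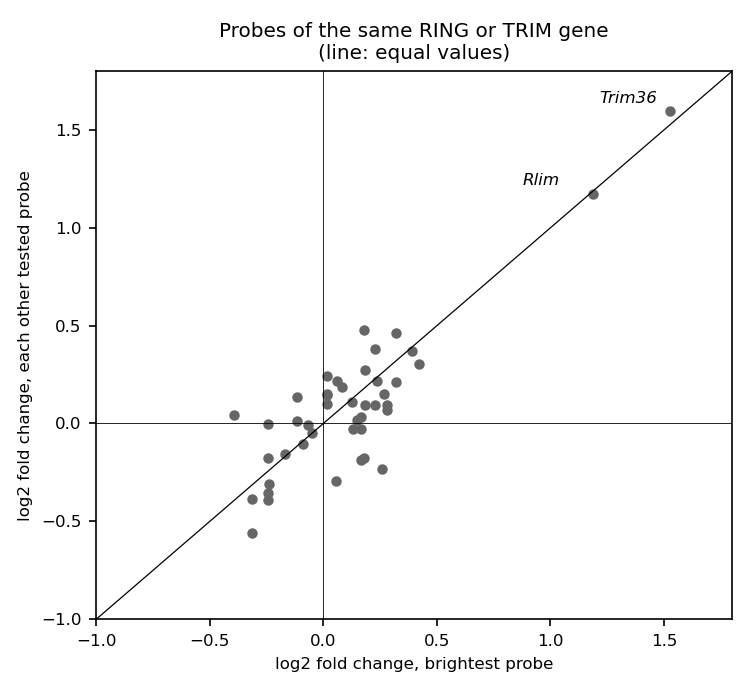
Log2 fold change of each further tested probe (vertical axis) against that of the brightest probe of the same gene (horizontal axis), *Prdm14*-null over wild-type, for the 30 genes with several tested probes. The line marks equal values. *Rlim* and *Trim36* lie near it in the upper right, but their further probes entered the test through the *Prdm14*-null arrays alone. In 7 genes at least 1 further probe has the opposite sign.

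The called genes lay on 8 chromosomes. Of 6 measured members on chromosome 9, 3 were lower, *Trim43a*, *Trim43b* and *Rnf214*. Of all 480 genes tested on it, 62 were lower and 46 higher, 22.5% in either direction. *Trim43a* and *Trim43b* entered the test through the wild-type arrays alone and may not be 2 separate measurements. Chromosome 11 held the most members, 11, of which 8 had a log2 fold change below 0 and 0 were called. Their median of -0.13 was close to that of all 724 genes of chromosome 11, -0.14, of which 14 were higher and 103 lower. *Rnf145*, *Rnf185*, *Rnf167* and *Rnf130*, named above with values below 0, lie on it, as do *Trim25* and *Trim16*. The part of the chromosome in these values was not tested.

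**Figure D5:**
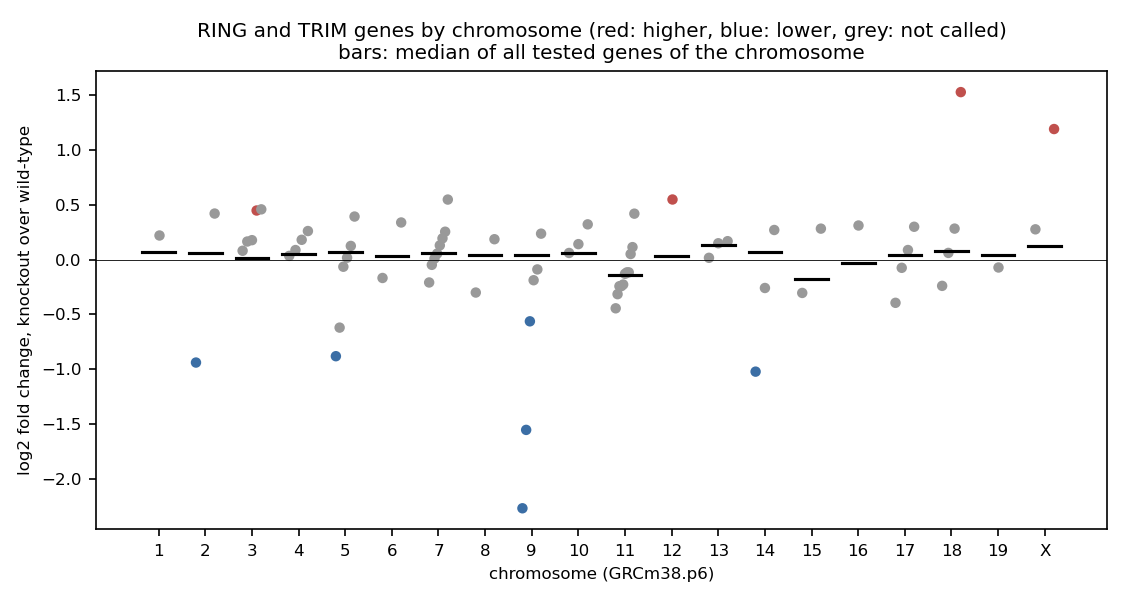
Log2 fold change of each of the 71 genes by chromosome (red called higher, blue called lower, grey not called), with a bar at the median of all tested genes of that chromosome. Within a chromosome genes are ordered by value, and the medians of chromosomes 11 and 15 lie lowest, at -0.14 and -0.18. On chromosome 9, 3 of 6 members were called lower, beside 62 of its 480 genes. Among these members are the close copies *Trim43a* and *Trim43b*, which may share signal.

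The other enzymes of ubiquitination were also counted. Their counts of higher and lower genes stand beside 6.72% and 8.41% of all genes. Of 26 measured activating and conjugating enzymes, which load ubiquitin or, in a few cases, a related modifier such as SUMO or NEDD8, 1 was higher and 1 lower, with a median of 0.09. *Ube2e1* was higher (log2 fold change 0.75, adjusted p = 0.00163) and *Ube2o* lower (-0.66, adjusted p = 0.00116). RING ligases under other names had 36 measured genes, 3 higher and 1 lower, with a median of 0.09. These were *Znrf1* (0.78), *Neurl1a* (0.58) and *Pml* (0.48), the organizer of PML nuclear bodies, which is itself TRIM19, and *Mid1*, an X-linked microtubule-binding TRIM protein also named TRIM18, which fell to below background, at least 1.74-fold lower. *Mid1* and *Trim36* both carry a COS box and were called in opposite directions, but *Mid1* entered the test through the wild-type arrays alone, so its call is given as a description.

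HECT ligases, which like the RBR ligases carry the ubiquitin on their own cysteine, had 15 measured genes with a median of 0.00. Of these 0 were higher and 1 lower, *Nedd4l* (-0.69, adjusted p = 0.00428), beside 6.72% and 8.41% of all genes. None of 7 measured cullins passed in limma (0 in either direction, median 0.05), beside 15.1% of all genes. An unadjusted p under 0.05 was found for 1 cullin, beside 3326 of all 8343 genes. On the authors' processed values 1 was called, beside 1584 of all 8343 genes. Deubiquitinases, which remove the tag, had 48 measured genes, 0 higher and 5 lower, with a median of 0.06, again beside 6.72% and 8.41% of all genes. *Usp26*, an X-linked gene expressed in testis, had a log2 fold change of -1.24 (adjusted p = 9.52e-05) and *Uchl1* one of -0.96 (adjusted p = 0.000923). *Usp43* was at least 1.37-fold lower, with no *Prdm14*-null array above background, and *Usp2* had a log2 fold change of -0.71.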

How the data were processed

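RNA of 3 wild-type and 3 *Prdm14*-null ES cell samples was measured on Illumina Mouse WG-6 BeadChips, and groups came from the sample labels. The authors deposited signal intensities of 45281 probes per array without normalization. Beside each stands a deposited detection p-value against negative control beads. They also deposited processed values of 15961 probes on a log2-like scale, with a median of 8.18 on each array; the submitters' notes name lumi with no settings. These served as an alternative only.

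From the signal intensities, background was removed by neqc's normal-exponential model, with 16 as the offset, followed by quantile normalization and log2 transformation in limma 3.58.1 (R 4.3.3). The 14436 probes with a detection p under 0.01 on at least 3 of 6 arrays were fitted with lmFit and eBayes with genotype as the term, with Benjamini-Hochberg adjustment over all of them. Genes were called at an adjusted p under 0.01, the threshold of the study's methods. The fit was tested on simulated data. Arrays held 0 identical signals at the same probe.

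Gene names came from the platform annotation, in which 12582 tested probes had 1 symbol, 6 several and 1848 none, and positions from RefSeq (GRCm38.p6). Probes without a symbol were not named. The probe with the highest mean signal stood for a gene. Where no array of a genotype was above background, the fold is given as a lower limit. It sets the mean of the brighter genotype against, on each array of the dimmer one, the higher of the probe's own value and the lowest value among probes above background.

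Members, lists and roles were chosen with earlier results of these data known. The genes named are *Rlim*, every called member, *Rnf4*, *Rnf8*, *Rnf20*, *Rnf31*, *Rnf40*, *Rnf43*, *Rnf111*, *Trim24*, *Trim33* and *Trim71*, up to 2 further members of each class with the highest mean signal, up to 4 called genes of each pathway list, and the measured X inactivation and Y-linked genes. *Rnf6*, *Rnf13*, *Rnf113a1*, *Rnf114*, *Rnf138*, *Rnf145*, *Rnf168*, *Rnf169*, *Rnf185*, *Rnf225* and *Trim16* were added to these once their values were known.

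Alternatives covered the background correction, offset, scaling, the authors' values, probe filter, variance model, array weights, a replicate block, choice of probe, threshold and leaving out each sample in turn. No block for the BeadChip was fitted, since no source names the arrays that shared one.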

Additional observations from a re-analysis of the deposited data

How the results depend on the processing

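The members' median stayed within 0.04 to 0.08 over the 17 alternatives that bear on it, against 0.06. The count of members called higher, 4, became 7 on the authors' processed values, 8 at an adjusted p under 0.05, 2 with a replicate block, and 2 when any 1 sample was left out. Calls over all genes moved with the setting as well. In either direction 1584 of 8343 genes were called on the authors' processed values, against 1263 in the main fit. At an adjusted p under 0.05 it was 27.4% of all genes, against 15.1%. For the other alternatives the share over all genes was not counted. *Rnf113a2* and *Trim2* were the calls lost in all 6 fits with a sample left out. The count called lower, 6, became 10 at an adjusted p under 0.05, and 3 when probes had to be above background on all 6 arrays, since *Trim43a*, *Trim43b* and *Rnf216* were then not tested (61 members were).

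With the replicate block, which lost *Rnf113a2*, *Rnf214* and *Trim2*, 7 members were called; same-numbered samples did not deviate together (correlations of -0.03, -0.06 and -0.13) and share only a number. Some values near 0 changed sign when 1 sample was left out: *Rnf40* ran from -0.12 to 0.14, *Rnf14* from -0.0063 to 0.14, *Trim3* from -0.0058 to 0.27 and *Rnf5* from -0.18 to 0.0331. *Trim33* became -0.0039 when the probes of a gene were averaged. No cause was tested. The number of arrays, 6, limits the precision, and genes at or near background are measured only as bounds.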
